A study of Mus musculus with 6 samples.

Results

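The genes described here are 42 mouse genes of the cell cycle and of the p53 and stress response, out of 25718 genes measured in primary hepatocytes. The rule lists them by name and uses no measured value, but it was set with earlier results of these data known. They are 8 cyclins, 4 cyclin-dependent kinases (CDKs), 3 CDK inhibitors, 5 E2F and pocket protein genes, 7 genes of DNA replication, 7 genes of mitosis and 8 genes of the p53 and stress response. The 6 libraries, 3 of WT and 3 of S100a16KO+/- mice, all of them fed alcohol, were compared to ask how loss of 1 copy of the calcium-binding protein gene S100a16 changes gene expression in the alcohol-fed liver. The labels call the second genotype S100A16 knockdown, while the study's methods describe heterozygous deletion from a floxed allele by EIIa-Cre, a Cre active in the early embryo, on a mostly C57BL/6 background. Both genotypes were male mice of 8 to 10 weeks fed a control liquid diet for 5 days and then 5% (vol/vol) ethanol in that diet for 10 days, with cells taken 9 h after a single ethanol gavage (5 g/kg), and no pair-fed libraries were analysed here. The labels do not say whether the libraries came from separate mice, so the p-values measure the spread between these libraries, which may be technical.

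Cells divide under the control of cyclins and CDKs: D-type cyclins with CDK4 and CDK6 phosphorylate the pocket proteins, which frees E2F factors to switch on replication genes, and cyclin A and B complexes drive DNA synthesis and mitosis. The transcription factor p53, held low by the ubiquitin ligase MDM2, answers DNA damage and other stress by inducing CDK inhibitors and growth arrest genes such as Gadd45a. Genes of the Gadd45 family also respond to other stress pathways without p53. Adult hepatocytes are mostly quiescent and can re-enter the cycle after loss of liver mass or injury.

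The estimated counts summed to between 67658095 and 71807834 per library, and the detection floor was set at 12 counts in each library, or 0.167 to 0.187 CPM, the counts per 1000000 of the scaled library total. This floor covers counting error only. S100a16 itself had 1001, 1056 and 1107 counts in WT and 433, 390 and 366 in S100a16KO+/-, a log2 fold change of -1.40 (SE 0.110), in the direction its labels give. The hepatocyte marker Alb, which encodes albumin, stood between 82215 and 94028 CPM in the 6 libraries. On the second principal component WT replicate 1 and S100a16KO+/- replicate 2 stood apart from the other 4 libraries, while the first separated the genotypes. Mitochondrial genes held 21.1% and 20.1% of the counts of these libraries, against 17.0% to 18.6% in the other 4. The part of this difference in the separation was not tested.

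The 5 members with the smallest adjusted p were Gadd45a, Gadd45g, Btg2, Gadd45b and Plk3, and the 250 bases upstream of their start sites are shown because they set the related genes Gadd45a and Gadd45b, which fell, beside Gadd45g, which rose. The sequences are from RefSeq on GRCm38.p6, 5′ to 3′ on the gene's strand, and capitals mark the matches to 8 motifs that were searched on both strands. They lie at chr6:67037408-67037657 (minus strand, Gadd45a), chr13:51846425-51846674 (plus strand, Gadd45g), chr1:134079156-134079405 (minus strand, Btg2), chr10:80929841-80930090 (plus strand, Gadd45b) and chr4:117133964-117134213 (minus strand, Plk3). In GENCODE M21, annotated exons reach into 2 of the windows: the last 50 bases of the Gadd45a window lie in a retained-intron transcript of that gene, and the last 18 of the Gadd45b window in the 5′ UTR of a coding one.
Gadd45a: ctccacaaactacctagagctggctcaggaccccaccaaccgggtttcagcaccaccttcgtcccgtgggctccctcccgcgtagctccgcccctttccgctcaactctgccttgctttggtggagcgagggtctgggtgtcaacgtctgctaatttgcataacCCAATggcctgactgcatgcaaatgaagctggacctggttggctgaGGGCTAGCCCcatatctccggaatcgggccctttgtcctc
Gadd45b: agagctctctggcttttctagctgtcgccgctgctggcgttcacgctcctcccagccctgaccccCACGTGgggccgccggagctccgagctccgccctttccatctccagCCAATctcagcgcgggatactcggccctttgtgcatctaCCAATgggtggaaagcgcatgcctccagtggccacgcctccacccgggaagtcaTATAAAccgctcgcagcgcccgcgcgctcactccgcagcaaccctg
Gadd45g: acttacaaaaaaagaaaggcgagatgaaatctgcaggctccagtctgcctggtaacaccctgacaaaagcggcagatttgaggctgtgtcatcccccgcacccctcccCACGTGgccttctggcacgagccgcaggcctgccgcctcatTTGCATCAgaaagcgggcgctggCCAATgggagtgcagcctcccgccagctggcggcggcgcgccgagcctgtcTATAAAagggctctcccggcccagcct
Btg2: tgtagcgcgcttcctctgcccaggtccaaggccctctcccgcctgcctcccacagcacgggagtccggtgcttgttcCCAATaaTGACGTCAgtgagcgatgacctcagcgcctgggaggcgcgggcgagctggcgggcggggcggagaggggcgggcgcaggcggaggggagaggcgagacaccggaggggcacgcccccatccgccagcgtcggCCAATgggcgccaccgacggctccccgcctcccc
Plk3: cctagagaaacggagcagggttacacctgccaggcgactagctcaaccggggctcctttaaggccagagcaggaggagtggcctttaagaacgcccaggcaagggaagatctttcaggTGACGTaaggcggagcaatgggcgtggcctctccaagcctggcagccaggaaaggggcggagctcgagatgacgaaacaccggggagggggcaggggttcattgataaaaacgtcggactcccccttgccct

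In these windows the capitals of Gadd45a are a CCAAT box and, 40 to 31 bases before the start, a p53 half-site. Gadd45b and Gadd45g each hold an E-box, which is spelled CACGTG and occurs 185 to 180 bases before the start of Gadd45b and 142 to 137 before that of Gadd45g. They also share a TATA box, which is spelled TATAAA and lies 46 to 41 and 27 to 22 bases before the start. Gadd45g alone of the 35 members with a window holds the ATF4 and CHOP composite element (TGATGNAA), on the opposite strand at 101 to 94 bases before the start. Btg2 and Plk3 hold the CRE core (TGACGT), which in Btg2 matches on both strands with an overlap. Over all 32817 RefSeq windows of this length the shares with a match were 33.8% for CCAAT, 6.46% for the CRE core, 6.02% for the E-box, 12.4% for the TATA box, 3.45% for the composite element and 7.12% for the p53 half-site. Among the 35 members, 25 held a CCAAT box, 6 the CRE core, 4 the E-box, 4 the TATA box and 4 the p53 half-site (Cdkn1a, Gadd45a, Mdm2 and Trp53). An E2F site (TTTNNCGC) occurred in 8 member windows (Cdk1, Cdk2, Cdk6, Mcm5, Mcm6, Mcm7, Mdm2 and Rbl1) against 4.28% of all windows. The CHR element of mitotic genes (TTTGAA) occurred in 7 member windows, against 5245 of all 32817. A match describes the letters only. Ccna2, Foxm1, Ccne2, Mcm4, Rb1, Ccnd1 and Ccnd2 had no window.

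Of the 42 members, 37 were expressed enough to be tested and 13 differed between genotypes at an adjusted p under 0.05 by edgeR, with 8 higher and 5 lower in S100a16KO+/-. Without WT replicate 1 and S100a16KO+/- replicate 2, the libraries that stood apart, 9 were called, 5 higher and 4 lower. The 13 called are 35.1% of the members tested, against 22.8% of all 15957 tested genes, of which 11.6% were higher and 11.2% lower. The criterion of the study's methods (unadjusted p under 0.05 and at least 2-fold) was met by Gadd45a, Gadd45b and Gadd45g, 3 of 37 members, against 4.52% of all tested genes. The 3 values of each genotype did not overlap for 14 of 37 members, close to the 37.9% of all tested genes. The median log2 fold change of the tested members was 0.077, and that of all tested genes 0.0062. By level, 11 of the 18 members with a mean of at least 4 CPM were called (61.1%, against 33.1% of all tested genes at that level), 2 of 10 at 1 to 4 CPM, and none of the 9 tested members below 1 CPM. Of all 15957 tested genes, the 9209 with at least 4 CPM held 3045 of the 3643 calls. Calls were thus rarer at low levels among all genes too. In the p53 and stress response group 7 of 8 genes were called. Of the 29 tested members outside it 6 were, none with a log2 change above 0.85 in size. These groups were set by role: Cdkn1a, a p53 target, was counted with the CDK inhibitors and was not called. Among 34 tested p53 targets outside the members, 20.6% were called.

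**Figure D1:**
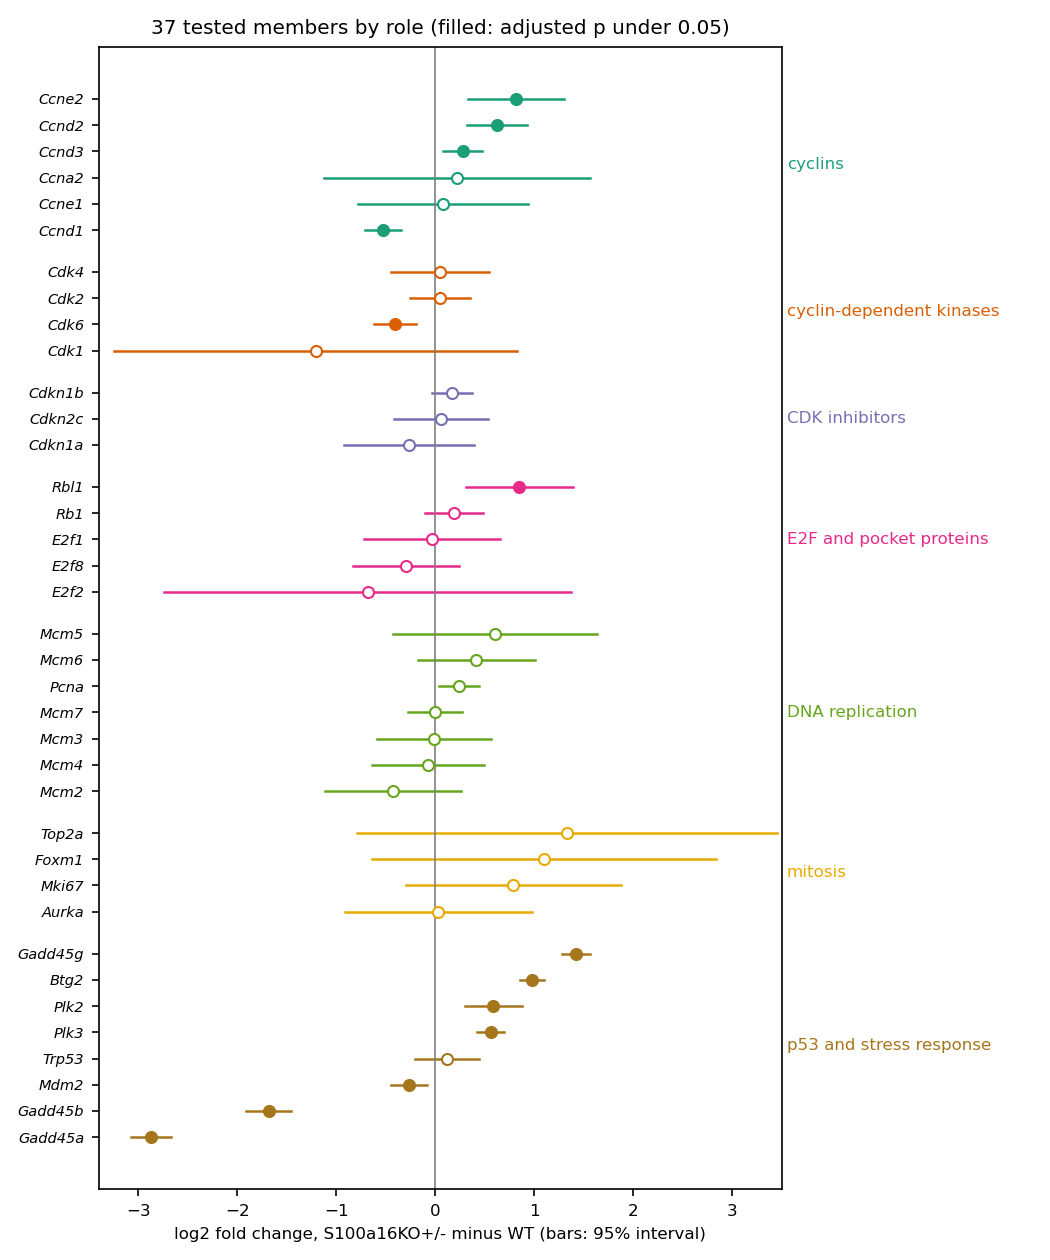
Log2 fold change of the 37 tested members (x axis, S100a16KO+/- minus WT, points) with its 95% interval (bars), grouped and coloured by role; filled points have an adjusted p under 0.05. The changes run from -2.87 for Gadd45a to 1.42 for Gadd45g, both in the p53 and stress response group, and the genes of DNA replication and mitosis hold no filled point.

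Within the p53 and stress response group, the 3 Gadd45 genes, which encode small stress-induced proteins that bind PCNA and CDK1 and feed p38 and JNK signalling, moved in opposite directions. Gadd45a (ENSMUSG00000036390, chr6:67035096-67037406, minus strand) stood at 57.9, 57.5 and 55.9 CPM in WT and at 7.61, 6.71 and 9.07 CPM in S100a16KO+/-. Every S100a16KO+/- library was far below every WT library. Gadd45a fell by 2.87 on the log2 scale (SE 0.0945, adjusted p = 4.3e-11), to 13.7% of its WT mean, the largest change of any tested member. Gadd45b (chr10:80930073-80932204, plus strand) stood at 14.4, 14.6 and 14.1 CPM in WT and at 4.16, 4.56 and 4.72 CPM in S100a16KO+/-, a fall of 3.21-fold (log2 -1.68, SE 0.106, adjusted p = 3.92e-08). Gadd45g (chr13:51846678-51848468, plus strand) went the other way, from 21.6, 23.6 and 20.9 CPM to 57.8, 56.9 and 62.2 CPM, a rise of 2.68-fold (log2 1.42, SE 0.0659, adjusted p = 1.64e-09). For none of the 3 genes did the genotypes overlap. E230016M11Rik, which overlaps Gadd45a by 808 bases on the opposite strand, had 4.39 CPM in WT and 2.08 CPM in S100a16KO+/- (log2 -1.08, adjusted p = 0.000454). The sources used here do not say whether counting used the strand, so reads of such a pair may be shared.

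Per length, the summed level of the 3 Gadd45 genes differed by less than the spread between libraries, at 51.1, 57.1 and 52.95 FPKM in WT and 51.3, 46.7 and 56.9 FPKM in S100a16KO+/- (53.7 ± 3.08 and 51.7 ± 5.11, SD, n = 3). This depends on the length scaling: in CPM the sum was lower in every S100a16KO+/- library than in every WT library. The composition per length did not overlap between genotypes. Gadd45a made up 53.8% ± 0.993 of the family's FPKM in WT and 7.62% ± 0.763 in S100a16KO+/-, and Gadd45b 15.0% ± 0.177 and 4.87% ± 0.266. Gadd45g made up 31.2% ± 1.13 in WT and 87.5% ± 0.637 in S100a16KO+/-, so the leading family member in these cells was Gadd45a in each WT library and Gadd45g in each S100a16KO+/- library.

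**Figure D2:**
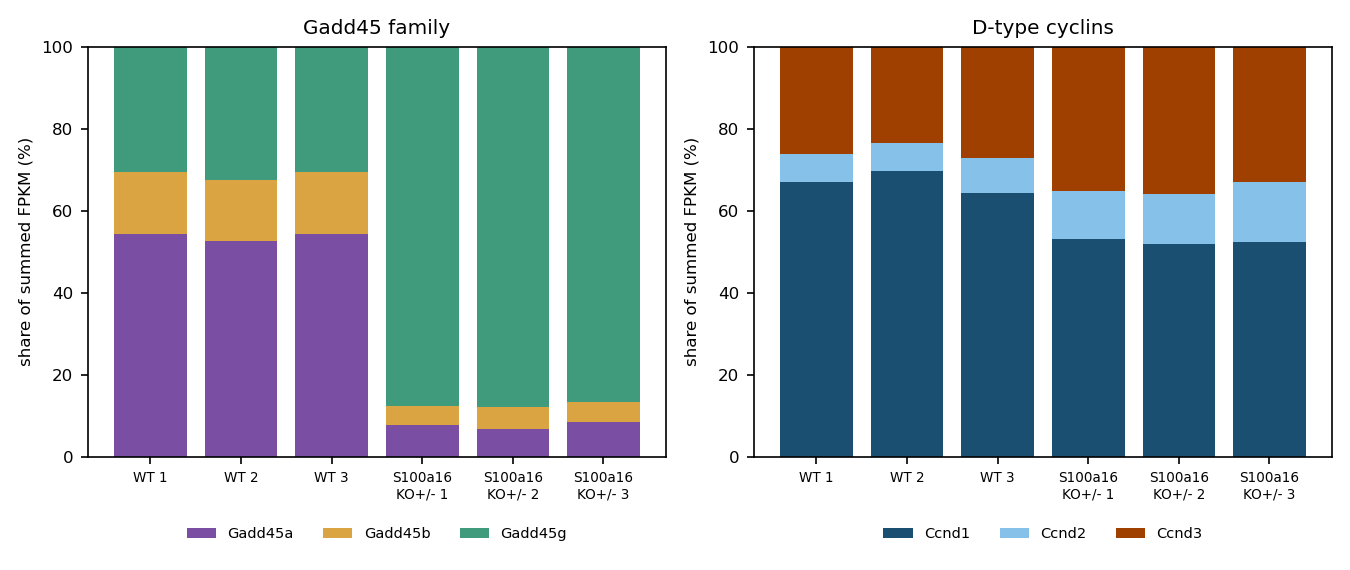
Share of the summed FPKM (y axis, %) of each Gadd45 gene (left) and each D-type cyclin gene (right) in each of the 6 libraries; each bar is 1 library and adds to 100%. Gadd45g takes 30.5 to 32.5% of the Gadd45 bar in WT and 86.8 to 88.0% in S100a16KO+/-, and Ccnd1 takes 64.4 to 69.8% and 51.95 to 53.03% of the D-type cyclin bar.

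Btg2, Plk3 and Plk2, the other stress genes of this group, rose. Btg2, an antiproliferative p53 target that promotes mRNA deadenylation, stood at 41.94, 41.98 and 39.96 CPM in WT and at 78.3, 81.3 and 84.7 CPM in S100a16KO+/-, with no overlap. The rise was 1.97-fold (log2 0.98, SE 0.0569, adjusted p = 1.7e-08). Plk3, a stress-responsive polo-like kinase and the most abundant member per length, went from 117, 108 and 107 CPM to 150, 173 and 166 CPM (log2 0.56, SE 0.0626, adjusted p = 1.44e-05). Plk2, its relative, went from 4.89, 5.26 and 5.13 CPM to 6.51, 8.03 and 8.4 CPM (log2 0.59, SE 0.134, adjusted p = 0.00549). In both kinases the lowest S100a16KO+/- library lay above the highest WT library.

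Trp53, which encodes p53, was not called: it stood at 10.9, 10.4 and 10.2 CPM in WT and at 9.97, 14.8 and 9.45 CPM in S100a16KO+/- (log2 0.12, 95% interval -0.20 to 0.44, adjusted p = 0.642). Its highest value came from S100a16KO+/- replicate 2, while replicates 1 and 3 lay below all WT libraries. Mdm2, both a p53 target and its negative regulator, stood at 23.0, 22.2 and 24.1 CPM in WT and at 21.2, 17.6 and 18.9 CPM in S100a16KO+/-, a fall of 0.26 on the log2 scale (SE 0.0845, adjusted p = 0.0378). The genotypes did not overlap, but the Mdm2 call was lost without WT replicate 1, 2 or 3 (adjusted p = 0.0776, 0.0618 and 0.139) and without S100a16KO+/- replicate 2 or 3 (0.107 and 0.112). The CDK inhibitor Cdkn1a, which encodes p21 and is the best known arrest gene downstream of p53, was low and scattered, at 2.17, 1.48 and 1.91 CPM in WT and 0.938, 1.38 and 2.29 CPM in S100a16KO+/- (log2 -0.27, 95% interval -0.92 to 0.39, adjusted p = 0.609). The highest and the lowest Cdkn1a values were both S100a16KO+/- libraries.

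**Figure D3:**
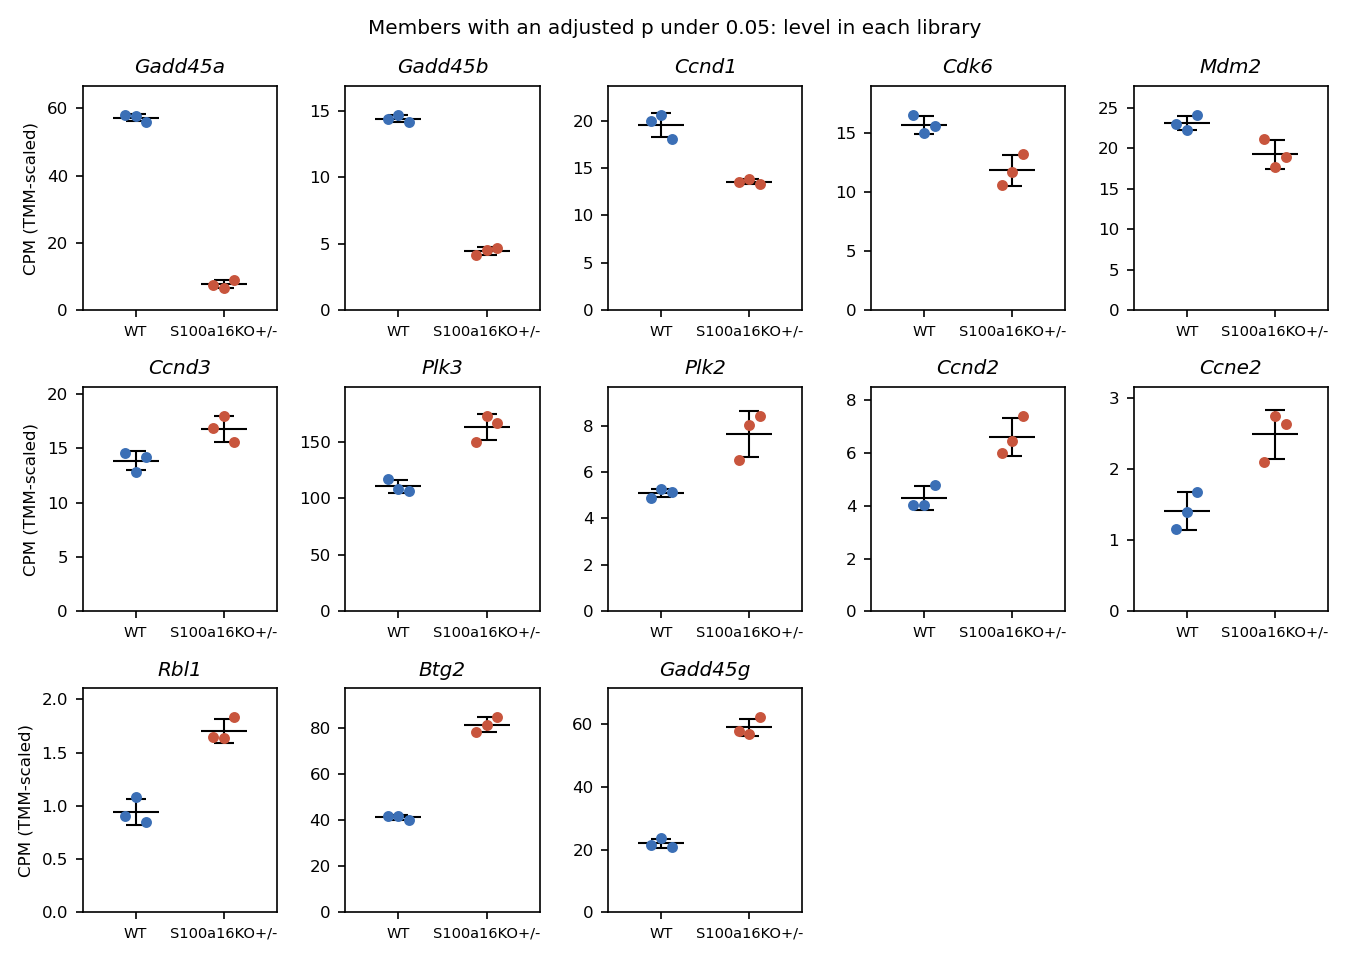
Level of each of the 13 called members in CPM (y axis, linear from 0) in the 3 WT libraries (blue points) and the 3 S100a16KO+/- libraries (red points), with the mean and SD as black bars, ordered from the largest fall to the largest rise. No panel has overlapping genotypes, which is no separate support because the panels were picked by adjusted p on these same libraries. The gap is widest for Gadd45a, at 55.9 to 57.9 CPM against 6.71 to 9.07 CPM.

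Among the cyclins, 3 rose, 1 fell and 2 of the 6 tested were not called. Ccnd1, which encodes cyclin D1 and is induced in hepatocytes that enter the cycle, stood at 19.96, 20.56 and 18.07 CPM in WT and at 13.6, 13.9 and 13.3 CPM in S100a16KO+/-. The 3 S100a16KO+/- values were all below WT, and the fall was 0.53 on the log2 scale (SE 0.0851, adjusted p = 0.000396). Ccnd2 rose from 4.03, 4.05 and 4.81 CPM to 5.99, 6.46 and 7.40 CPM (log2 0.62, SE 0.143, adjusted p = 0.00563). Ccnd3 stood at 14.6, 12.9 and 14.2 CPM in WT and 16.9, 17.9 and 15.6 CPM in S100a16KO+/- (log2 0.28, SE 0.0918, adjusted p = 0.0443). This small rise is at the threshold: it was lost without WT replicate 1, 2 or 3 (adjusted p = 0.0597, 0.166 and 0.0886) and without S100a16KO+/- replicate 1 or 2 (0.108 and 0.122). Summed over the 3 D-type cyclins, the level per length was 5.36, 5.77 and 5.40 FPKM in WT and 4.96, 4.80 and 5.00 FPKM in S100a16KO+/-, with no overlap. In CPM, which are not scaled for length, the sums of the genotypes overlapped. The share of Ccnd1 in the summed FPKM was 67.1% ± 2.67 in WT and 52.5% ± 0.541 in S100a16KO+/-.

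Ccne2, which encodes a cyclin that activates CDK2 at the start of S phase, was near 2 CPM and rose from 1.16, 1.39 and 1.68 CPM to 2.09, 2.74 and 2.62 CPM (log2 0.82, SE 0.227, adjusted p = 0.018). The Ccne2 call was lost without WT replicate 1 or 2 (adjusted p = 0.0725 and 0.0554) and without S100a16KO+/- replicate 2 or 3 (0.0628 and 0.0652). Ints8, on the opposite strand, overlaps Ccne2 by 5622 bases and had 9.58 CPM in WT and 8.70 CPM in S100a16KO+/- (adjusted p = 0.562). Ccne1 and the S and G2 phase cyclin Ccna2 stayed below 1 CPM in every library and were not called (log2 0.077 and 0.22). The mitotic cyclins were barely detected: Ccnb1 had 5 counts in WT replicate 3 and 0 in the other 5 libraries, and Ccnb2 had 7, 0 and 29 counts in WT and 5, 10 and 8 in S100a16KO+/-.

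Of the 4 CDKs, Cdk6 was called. It stood at 16.5, 15.0 and 15.6 CPM in WT and at 10.6, 11.7 and 13.2 CPM in S100a16KO+/-, without overlap, and fell by 0.41 on the log2 scale (SE 0.0996, adjusted p = 0.00878). Cdk4, which encodes the other kinase that acts with D-type cyclins, had the higher level per length. It spread widely within WT, at 28.6, 19.4 and 17.4 CPM, against 20.98, 25.89 and 20.63 CPM in S100a16KO+/- (adjusted p = 0.91). The summed FPKM of Cdk4 and Cdk6 overlapped between genotypes. Cdk2 was not called (log2 0.044, 95% interval -0.26 to 0.35), and Cdk1, the mitotic kinase, had at most 18 counts in any library and 0 in S100a16KO+/- replicate 1. Besides Cdkn1a, the inhibitors Cdkn1b, which encodes p27 and stood between 15.4 and 19.7 CPM, and Cdkn2c, which encodes p18, were not called (log2 0.17 and 0.061).

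Among the E2F and pocket protein genes, Rbl1, which encodes the pocket protein p107, was the only one called. It rose from 0.908, 1.08 and 0.847 CPM to 1.65, 1.63 and 1.83 CPM (log2 0.85, SE 0.252, adjusted p = 0.0256), again without overlap. The Rbl1 call was lost without WT replicate 1 or 3 (adjusted p = 0.0653 and 0.0842) and without S100a16KO+/- replicate 1 or 3 (0.0608 and 0.0865). Rb1 itself stood between 4.80 and 6.62 CPM and was not called (log2 0.19, 95% interval -0.10 to 0.48, adjusted p = 0.373). The activators E2f1 and E2f2 and the repressor E2f8 were below 2 CPM in every library, and their log2 differences were -0.030, -0.69 and -0.30 with adjusted p of 0.963, 0.681 and 0.456.

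None of the 7 DNA replication members was called. Pcna, the sliding clamp of DNA polymerases, came nearest, at 15.99, 15.61 and 18.28 CPM in WT and 19.2, 21.4 and 18.2 CPM in S100a16KO+/- (log2 0.24, 95% interval 0.037 to 0.44, adjusted p = 0.0863). Its genotypes overlapped by a narrow margin, WT replicate 3 lying just above S100a16KO+/- replicate 3. The 6 subunits of the MCM2-7 helicase gave log2 differences from -0.43 for Mcm2 to 0.60 for Mcm5, 4 negative and 2 positive. Mcm7, by far the most abundant of them, stood at 6.73 to 8.70 CPM with a log2 difference of -0.0031 and a 95% interval of -0.28 to 0.27.

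Genes of mitosis were at or near the limit of detection in both genotypes. Mki67, which encodes the proliferation marker Ki-67, had 17, 25 and 14 counts in WT and 38, 29 and 29 counts in S100a16KO+/-, or 0.249, 0.355 and 0.205 CPM and 0.548, 0.451 and 0.403 CPM. The genotypes did not overlap, yet the difference was not called (log2 0.79, 95% interval -0.30 to 1.88, adjusted p = 0.31). Top2a, the topoisomerase of dividing cells, had 14, 0 and 12 counts in WT and 11, 43 and 10 in S100a16KO+/- (log2 1.33, adjusted p = 0.39), and its high value was S100a16KO+/- replicate 2 alone. The transcription factor of mitotic genes Foxm1 had 4 to 19 counts and the kinase Aurka 23 to 44, with adjusted p of 0.385 and 0.973. Plk1, Bub1 and Cdc20 did not pass the filter: Plk1 had at most 18 counts, Bub1 had 4 counts in WT replicate 1 and 0 elsewhere, and Cdc20 had 10 counts in WT replicate 1, 22 in S100a16KO+/- replicate 2 and 0 elsewhere. Of the 4 tested, the 95% interval of Aurka in the main fit (-0.92 to 0.98) only just leaves out a 2-fold difference. Its SE was 0.441 there and 0.540 with DESeq2, so this limit is not firm. The intervals of Mki67, Top2a and Foxm1 do not leave out a 2-fold rise. RNA was measured over whole preparations, so fewer cells of a type and less RNA per cell cannot be told apart.

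**Figure D4:**
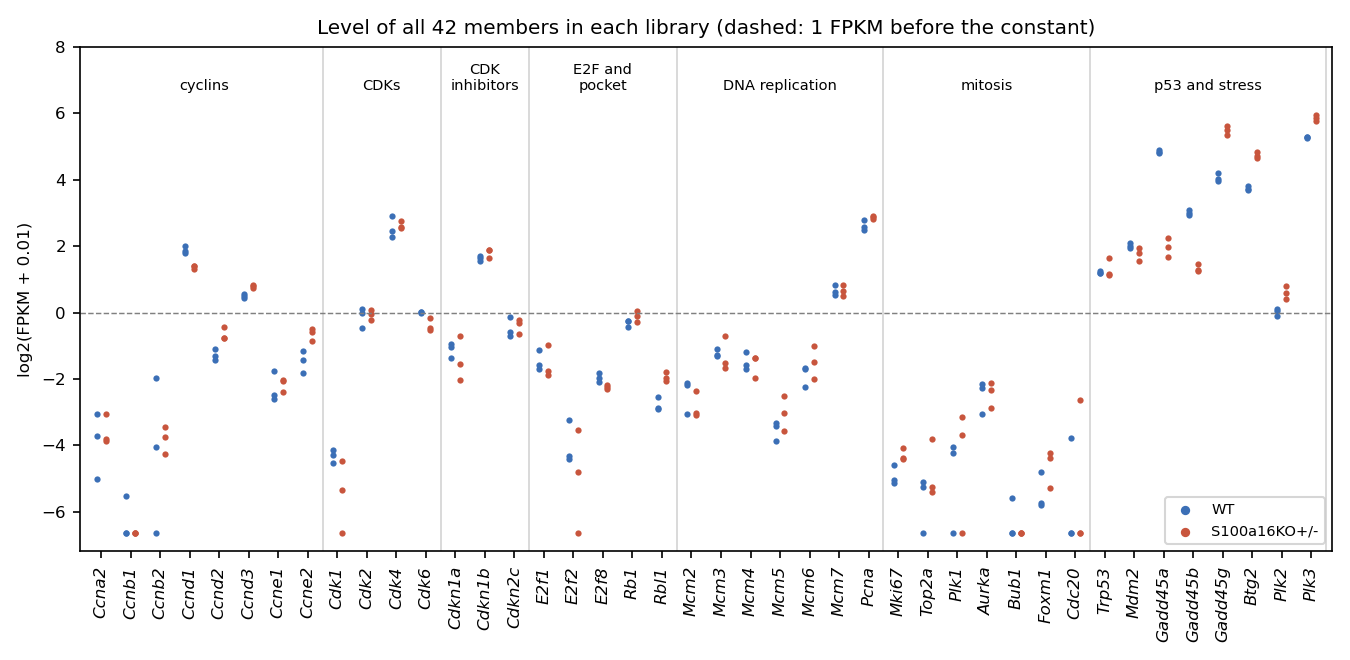
Level of all 42 members in each library as log2(FPKM + 0.01) (y axis), grouped by role along the x axis, with WT in blue and S100a16KO+/- in red; the dashed line is at 0. The p53 and stress response genes, Pcna, Cdk4, Cdkn1b and Ccnd1 fill the upper range, and Ccnb1, Bub1 and Cdc20 sit at the lowest level, that of 0 FPKM, in most libraries.

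Per length, 14 of the 42 members had a mean of at least 1 FPKM over the 6 libraries and 12 had less than 0.1. The order began with Plk3 (48.3 FPKM), Gadd45g (31.0), Btg2 (20.1), Gadd45a (16.4), Pcna (6.74), Cdk4 (6.06) and Gadd45b (5.29), and ended with Ccnb1 and Bub1 at 0.0020 and 0.0018 FPKM. Of the 24 tested members that were not called, 15 had a 95% interval within 1 log2 unit either way and 6 within 0.5, and the intervals of the others do not leave out a 2-fold difference. The 16 members that overlap another gene in the annotation include 7 called ones, Ccnd1, Ccnd3, Ccne2, Cdk6, Rbl1, Gadd45a and Plk3, in each case with a partner on the opposite strand.

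Other genes of these pathways, taken from lists chosen by function, gave mixed directions. Of 34 tested p53 targets outside the members, 3 rose, 4 fell and 27 were not called (20.6% called, median log2 -0.089). Gdf15, a stress-induced cytokine, fell from 85.7 ± 4.58 to 31.3 ± 2.79 CPM (log2 -1.46, adjusted p = 2.66e-09), and Tigar, a regulator of glycolysis, and Dglucy, a metabolic enzyme, fell by 0.69 and 0.59. Trp53inp1, which promotes p53-dependent arrest and autophagy, rose from 108 ± 4.17 to 186 ± 13.6 CPM (log2 0.79, adjusted p = 3.93e-07), as did Sesn1, a stress inhibitor of mTORC1 (log2 0.52), and the pro-apoptotic Bax (log2 0.44). Of 13 tested p53 regulators 1 rose and 2 fell (median log2 -0.073): Mdm4, the partner of MDM2, fell by 0.28 and the p53 kinase Hipk2 by 0.32, and Chek1 rose from a level below 1 CPM.

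Of 33 tested G1/S and replication genes, 5 rose and 2 fell (21.2% called, median log2 0.070). Ung, which removes uracil from DNA, rose from 3.45 ± 0.902 to 9.32 ± 0.319 CPM (log2 1.43, adjusted p = 2.58e-05), and Lig1 and Fen1, the ligase and the flap endonuclease of Okazaki fragment processing, rose by log2 0.99 and 0.90, whereas Tk1, the thymidine kinase of nucleotide salvage, fell by 0.51. Of 22 tested G2/M and mitosis genes, 2 rose and none fell (9.09% called, median log2 -0.079): the CDK subunit Cks1b (log2 1.5, 1.41 ± 0.294 to 3.998 ± 0.283 CPM) and Ccnf, a cyclin of a ubiquitin ligase (log2 0.48). Of 36 other cyclins, CDKs, inhibitors and E2F genes, 3 rose and 5 fell (22.2% called, median log2 0.011). Wee1, the kinase that holds CDK1 inactive and is also under clock control in liver, fell from 14.2 ± 0.117 to 6.39 ± 0.795 CPM (log2 -1.15, adjusted p = 3.02e-06), and Lin9 and Tob2 fell by 0.95 and 0.74. Ccng2, Ccnl1 and the Btg2 relative Btg1 rose by log2 0.54, 0.48 and 0.34. The called share of these 5 lists ran from 9.09% to 23.1%, around the 22.8% of all tested genes or below it.

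**Figure D5:**
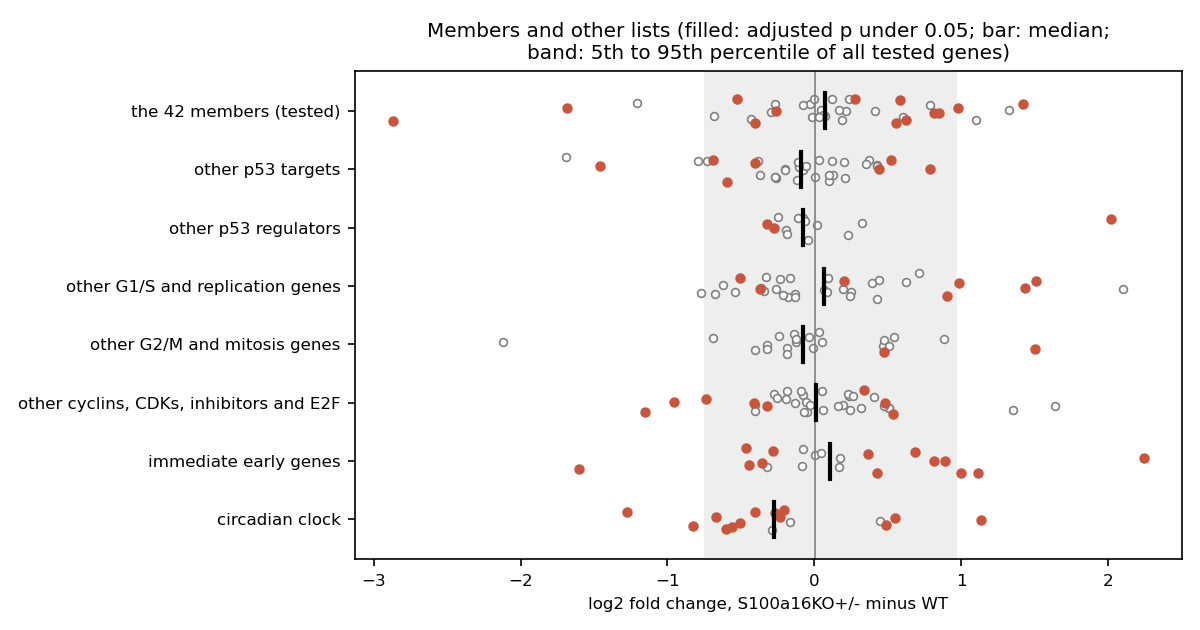
Log2 fold change (x axis, S100a16KO+/- minus WT) of each tested gene of the members and of 7 other lists (rows); filled points have an adjusted p under 0.05, black bars are list medians and the grey band spans the 5th to 95th percentile of all tested genes, -0.74 to 0.97. Gadd45a at -2.87 lies farthest left, and the immediate early and clock lists hold 13 filled points each (65% and 81.2% of those tested, against 22.8% of all tested genes).

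Several other gene groups held called genes in the same libraries, where 22.8% of all tested genes were called. The called share was 65% for immediate early genes, 81.2% for clock genes, 100% for endothelial and 71.4% for erythroid markers. It was 40% for stellate and fibroblast, 36.4% for hepatocyte and for macrophage, 20% for cholangiocyte and 8.33% for lymphocyte and neutrophil markers. Of 20 immediate early genes, which respond within minutes to stimulation and handling, 8 rose and 5 fell, and their summed level overlapped, at 987 to 1041 CPM in WT and 945 to 1030 CPM in S100a16KO+/-. Their log2 changes ran from -1.60 (Atf3) to 2.25 (Nr4a1), with Fos at 0.89 and a median of 0.11. Of 16 tested clock genes, 3 rose, led by Per1 (log2 1.13), and 10 fell, with sums of 727 to 736 CPM in WT and 575 to 587 CPM in S100a16KO+/-. Of the cell type lists, 4 of 11 hepatocyte markers were called (2 higher, 2 lower) and their sums overlapped. All 10 endothelial markers were called, 9 higher and 1 lower, with sums of 313 to 329 CPM in WT and 451 to 466 CPM in S100a16KO+/-, and 4 of 10 stellate and fibroblast markers were higher, with sums of 41.95 to 45.14 CPM and 74.6 to 80.0 CPM. Macrophage and Kupffer markers summed to 143 to 164 CPM and 164 to 183 CPM (4 of 11 higher), lymphocyte and neutrophil markers to 10.5 to 13.7 CPM and 13.5 to 14.3 CPM (1 of 12 called, lower), and cholangiocyte markers to 14.4 to 18.9 CPM and 12.2 to 14.8 CPM (1 of 5 called, lower). Erythroid markers fell in 5 of 7 tested genes, from sums of 218 to 256 CPM to 26.4 to 30.1 CPM. No gene of these lists was at 0 in all libraries, and Npas2, Ly6g and Cftr were at or below the floor in both genotypes. The part of these groups in the changes of the members was not tested.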

How the data were processed

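Poly(A) RNA of primary hepatocytes, isolated by collagenase perfusion and Percoll, was sequenced from 6 libraries, 3 per genotype, grouped by their labels. For every gene, the table deposited by the authors holds estimated counts and FPKM for each library. The submitters' processing notes name mm10, cutadapt 1.9, HISAT2 2.0.4, UMI-tools, StringTie 1.3.4d, DESeq2 and edgeR, without versions for some and without their settings. The deposited estimated counts are whole numbers, unscaled for library size, in which 1 fragment is worth about 4 counts. The deposited FPKM values are scaled for length and depth and were used for levels across genes. The authors' fold changes and p-values were not used. Symbols and positions are those of the table, and the identifiers of all 42 members occur in GENCODE M21, 38 with the same coordinates.

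The counts were tested for genotype with edgeR 4.0.16 in R 4.3.3 (TMM, filterByExpr, robust quasi-likelihood fit, two-sided, no covariate), with Benjamini-Hochberg adjustment over 15957 genes. CPM are TMM-scaled, over the tested genes. The members and lists were chosen with earlier results of these data known. Members given by library are those with an adjusted p under 0.05 and Trp53, Mdm2, Cdkn1a, Ccnd1, Mki67, Top2a and Pcna. From each other pathway list, up to 3 genes per direction with the largest called change and a mean of at least 1 CPM were named; Chek1, the immediate early and clock genes, and the library values of Cdk4 and of members with few counts (such as Ccnb2 and Cdc20) were added after their values were seen. Some list genes, Ttk, Hmmr, Tf and Slc4a1 among them, were not analysed here, and not every gene the rule names is reported here. Alternatives were other scalings, filters, tools (DESeq2 1.42.0, limma 3.58.1), the replicate block and leaving out libraries.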

Additional observations from a re-analysis of the deposited data

How the results depend on the processing

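No member reversed its direction with a call under any alternative. Of the 13 called members, 9 (Gadd45a, Gadd45b, Gadd45g, Btg2, Plk2, Plk3, Ccnd1, Ccnd2 and Cdk6) kept an adjusted p under 0.05 in each alternative that gave them a value, and Ccnd3, Mdm2, Rbl1 and Ccne2 lost it in 12, 10, 6 and 5 alternatives. At an adjusted p under 0.01, 5 members were higher. With limma on log2(FPKM + 1), and likewise on log2(FPKM + 0.1), 7 members were called, 4 higher and 3 lower, where the minimum of 1 FPKM left 14 members to test. Leaving out 1 library left 9 to 11 members called, 5 to 6 higher and 4 to 5 lower, with 3 to 4 meeting the study's criterion; the fewest came without WT replicate 1. Without both WT replicate 1 and S100a16KO+/- replicate 2, 9 were called, 5 of them higher. DESeq2 and limma voom each called 12. Upper quartile scaling added Pcna (adjusted p = 0.0494) and lost Mdm2 (0.0711), and 4 members met the study's criterion in place of 3, with Btg2 at log2 1.02. Other scalings moved the median of all genes by at most 0.037 on the log2 scale.

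With the replicate number as a block, 10 members were called, 6 higher and 4 lower, and 3 met the study's criterion; Ccnd3, Rbl1 and Mdm2 lost their calls (adjusted p = 0.0854, 0.0534 and 0.0546), and over all genes 3082 were called in place of 3643. The values showed no clear pairing by number: same-numbered libraries deviated from their group means with correlations of -0.047, -0.024 and 0.052, and not every library correlated best with its own number. Whether same-numbered libraries shared a batch cannot be told from these correlations. Depth limits the members below 1 CPM, 14 of 42, of which 9 could be tested.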
